A study of Oryza sativa with 18 samples.

Results

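The size and placement of R-loop peaks were compared between seedlings of wild-type rice labelled salt (150 mM NaCl, 2 libraries) and their controls labelled CK(salt) (2 libraries). These 4 libraries, of 18 in the series, were chosen by their titles, and their lists hold 161070 of the 812930 peaks of the series. The salt plants were grown by hydroponics with 150 mM NaCl. A single treatment label, 3 days of salt, is attached to all 4 libraries, so CK(salt) is a control by title only. All 4 are wild type and labelled as seedling tissue, and no label says whether the 2 libraries of a group came from separate plants. The p-values therefore reflect only how these 4 libraries vary, possibly for technical reasons. With 2 libraries against 2, the smallest two-sided p of an exact permutation test is 0.33.

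R-loops are three-stranded structures in which RNA pairs with its DNA template and leaves the other DNA strand single. They form mostly during transcription, are removed by RNase H and by helicases, and in plants have been mapped near gene starts and ends and in repeats. ISRH-seq labels them in place. RNase H nicks the RNA of the hybrid, DNA polymerase I replaces it with biotinylated DNA, and streptavidin then pulls down the marked strand for sequencing. The DNA was sonicated to 200 to 500 bp before the labelling, so a peak is a stretch of fragment coverage and not the length of the hybrid itself. Width below means the length of a called peak in bp, and the summit is the base of highest coverage in it. No source used here names the genome build, so positions could not be joined to genes or to sequence, and all results are in the coordinates of the lists, given 1-based.

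Values of each list that may bear on width are given first. Background coverage, the most frequent local background that the peak caller's fold and p-value imply, was 6.74 and 3.88 fragments per position in the salt libraries, against 8.60 and 4.30 in the CK(salt) libraries. The groups overlap in this measure of depth, and replicate 1 is the deeper library in both. The shortest peak was 213 and 188 bp in the salt lists, against 229 and 223 bp in the CK(salt) lists, and the shortest gap between peaks was 1 bp more than that in each list. No list can therefore show a narrower peak or a closer pair than this floor, which was lower in both salt lists. The peak names of CK(salt) replicate 1 alone carry the word merge, which no source used here explains.

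Peaks were narrower in both salt libraries across the whole range of widths. The median width was 352 and 315 bp in the salt libraries, against 427 and 401 bp in CK(salt), which gives means of 333.5 ± 26.2 and 414 ± 18.4 bp (SD, n = 2 each). The difference was -0.31 on the log2 scale, larger than the spread within either group (exact permutation p = 0.33). Within replicate numbers the salt median was 82.4% and 78.6% of the CK(salt) median. The narrowing was seen at every percentile examined and grew in bp with width. At the 5th percentile the widths were 223 and 197 bp in salt, against 243 and 236 bp in CK(salt). These values lie near the shortest peaks of the lists, 213 and 188 bp in salt and 229 and 223 bp in CK(salt). At the 95th percentile the widths were 818 and 761 bp in salt, against 1015 and 930 bp in CK(salt). On the log2 scale the difference was -0.19 at the 5th percentile, -0.34 at the 75th and -0.26 at the 99th, so it was largest in the upper middle of the range. Above its floor, the median peak extended by 139 and 127 bp in the salt lists, against 198 and 178 bp in the CK(salt) lists, a log2 difference of -0.50.

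**Figure D1:**
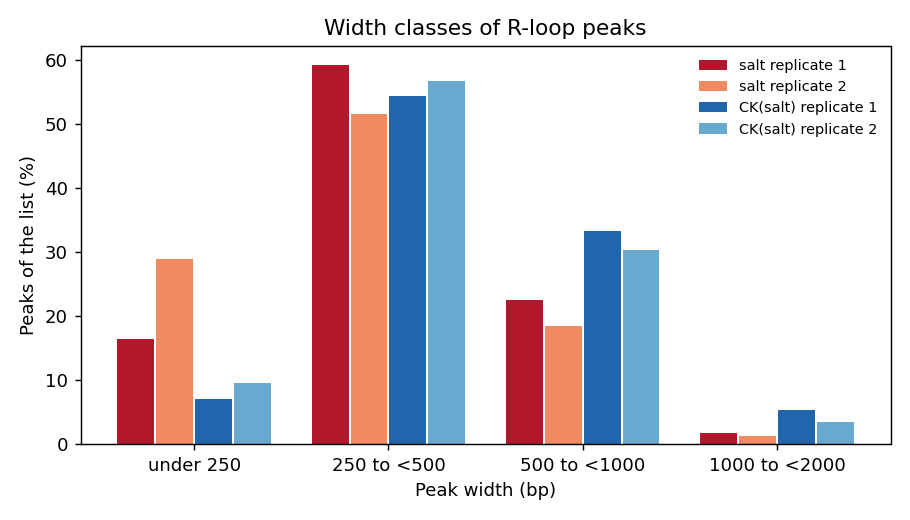
Percent of the peaks of each list (vertical axis) in 4 width classes in bp (horizontal axis), with 1 bar for each library. The salt bars are higher under 250 bp, at 16.5% and 28.9% against 7.004% and 9.58% in CK(salt), and lower from 500 bp upward. The class under 250 bp starts at the shortest peak of each list, which is shorter in both salt lists.

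The shares of the width classes differed between the groups, with a large relative decrease for peaks of 1000 bp or more. Peaks under 250 bp made up 16.5% and 28.9% of the salt lists, against 7.004% and 9.58% of the CK(salt) lists. This class starts at the shortest peak of each list, 213 and 188 bp in salt and 229 and 223 bp in CK(salt). It therefore spans fewer widths in the CK(salt) lists, and the part of this floor in the shares was not tested. Peaks of 250 to under 500 bp were the most common class in every list, at 59.2% and 51.5% in salt, against 54.4% and 56.7% in CK(salt), and here the groups overlapped. Peaks of 500 to under 1000 bp made up 22.6% and 18.4% in salt, against 33.2% and 30.3% in CK(salt). Those of 1000 to under 2000 bp numbered 569 and 438 in salt (1.73% and 1.22%), against 2754 and 1395 in CK(salt) (5.33% and 3.44%). Peaks of 2000 bp or more were rare in every list, with 14 and 7 in salt, against 30 and 11 in CK(salt). Taken as shares, peaks of 1000 bp or more were at 33.0% and 35.8% of the CK(salt) share within replicate numbers. The values for peaks of 500 bp or more were 63.1% and 58.2%. An equal narrowing of all peaks can also cut the share beyond a higher limit by more. These shares therefore do not show that broad peaks changed more than others. Exact binomial 95% intervals of these shares extend by at most 0.533 percentage points to either side and cover counting error only. Peaks of 500 bp or more held 41.1% and 35.8% of the covered bases in salt, against 58.1% and 52.3% in CK(salt). In 12 of the 13 libraries titled by input amount the median width lay above both salt libraries, and the exception was the 100 ng library with 273 bp.

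The lists differed in length, so the widths were also compared over equal numbers of peaks. With each list limited to its 32861 best-scored peaks, the median width was 352 and 324 bp in salt, against 499 and 431 bp in CK(salt). The log2 difference was -0.46. Salt replicate 1 is the shortest list and stayed whole, while the CK(salt) lists lost their lowest-scored peaks and their medians became wider, so the ranking by score itself moves this value. Peaks of 500 bp or more then made up 24.3% and 21.2% in salt, against 49.98% and 38.8% in CK(salt).

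The same narrowing was present at the regions that all 4 libraries share, which leaves presence and absence aside. Merging the 4 lists at 1 bp of overlap gave 58496 regions, of which 22988 had a peak in every library, and 21021 of these had exactly 1 peak in each. Over the 21021 regions the median width was 396 and 370 bp in salt, against 554 and 478 bp in CK(salt), and peaks of 500 bp or more made up 30.7% and 27.6% in salt, against 60.0% and 45.9% in CK(salt). The median region differed by -0.33 on the log2 scale, with a middle 50% of regions between -0.56 and -0.17. Both salt libraries were narrower than both CK(salt) libraries at 12767 regions (60.7% of those tested), and both were wider at 211 (1% of those tested). Widths within 10% of each other were found at 3750 regions (17.8%), and 1243 regions (5.91%) were at 0.5 times the CK(salt) width or less.

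No single region passed the test across all of them. In the limma fit over the 21021 regions, 0 were called narrower and 0 wider at an adjusted p under 0.05 (0% and 0% of those tested), and the lowest adjusted p was 0.112. At an unadjusted limma p under 0.05, 3365 regions (16% of those tested) were narrower and 23 (0.109%) wider. When each library's median was subtracted first, so that regions were set against the common shift, the limma fit again called 0 in either direction, and 928 narrower (4.41%) and 946 wider (4.5%) lay under an unadjusted 0.05. Relative to the library medians over these regions, both salt libraries were narrower at 2493 regions (11.9% of those tested) and wider at 6622 (31.5%), and the median region differed by 0.09 on the log2 scale. The medians of the libraries thus differ by more than the median region does. No region was called apart from the rest.

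The libraries were also compared pair by pair, between groups and within them. Salt replicate 1 was narrower than CK(salt) replicate 1 at 91.7% of the 21021 regions (median log2 difference -0.36), and salt replicate 2 was narrower than CK(salt) replicate 2 at 81.3% (-0.26). Salt replicate 1 has a higher background coverage than CK(salt) replicate 2, at 6.74 against 4.3 fragments per position. It was narrower than that library at 74.4% of regions, with a median log2 difference of -0.19. The remaining salt against CK(salt) pair gave -0.45. Libraries of 1 group also differed, by 0.08 between salt replicates 1 and 2 and by 0.15 between CK(salt) replicates 1 and 2, with the deeper library wider each time. The smallest of the 4 differences between groups was thus close to the difference between the CK(salt) libraries. How much of the difference between groups goes with depth was not tested.

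The input libraries place these widths. Over the regions with 1 peak in the list concerned, salt replicate 1 differed by -0.51 to -0.20 and salt replicate 2 by -0.61 to -0.28 (median log2) from the 12 input libraries of 250 ng and more. CK(salt) replicate 1 differed from the same 12 libraries by -0.11 to 0.16, and CK(salt) replicate 2 by -0.29 to -0.00311. Both salt libraries and CK(salt) replicate 2 were therefore narrower than all 12, the salt libraries by more in each case, whereas CK(salt) replicate 1 lay among them. Against the 100 ng library all 4 libraries were wider, by 0.51 and 0.41 in salt and by 0.92 and 0.73 in CK(salt).

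**Figure D2:**
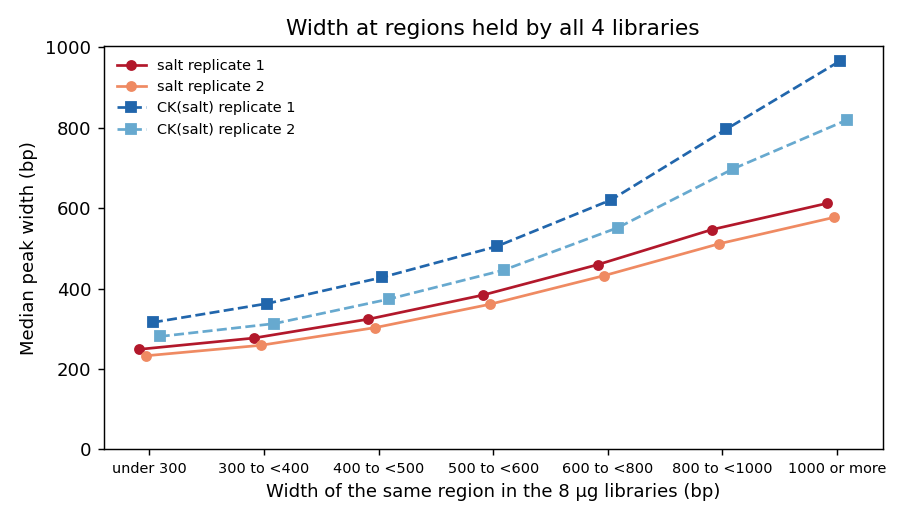
Median peak width in bp (vertical axis) of each salt and CK(salt) library at regions with 1 peak in each, grouped by the width of the same region in the 2 libraries of 8 µg input DNA (horizontal axis, bp). Both salt lines lie below both CK(salt) lines in every group, from 249 and 233 bp against 316 and 281 bp in the narrowest to 612 and 577 bp against 967 and 820 bp in the broadest.

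Regions of every size were narrower in salt. To sort regions without the salt or CK(salt) data, their width was taken from the 8 µg libraries, which had 1 peak each at 20676 of the 21021 regions. At the 221 regions under 300 bp in those libraries the medians were 249 and 233 bp in salt, against 316 and 281 bp in CK(salt). At the 3503 regions of 500 to under 600 bp they were 384 and 361 bp in salt, against 505 and 446 bp in CK(salt). At the 2521 regions of 1000 bp or more they were 612 and 577 bp in salt, against 967 and 820 bp in CK(salt). The median log2 difference was -0.30, -0.32 and -0.38 in these 3 classes and lay within that range in the other 4. The log2 ratio of the library medians themselves, averaged over the libraries of each group, was -0.31, -0.35 and -0.58 in the same 3 classes. The 2 summaries differ: taken region by region the difference changed little with size, whereas the medians of the classes moved further apart at broad regions. Sorted by peak score in the 8 µg lists into 5 equal groups, the difference was -0.36 in the weakest and -0.26 in the strongest. In the strongest group the widths were 507 and 475 bp in salt, against 653 and 584 bp in CK(salt). The size of the difference was thus smallest in the strongest group. The share of regions where both salt libraries were narrower ran the other way, at 52.8% in the weakest group and 66.2% in the strongest. In no group did the medians of salt and CK(salt) libraries overlap.

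Position on the chromosome made little difference to the narrowing. The median log2 difference ran from -0.32 on chromosome 12 to -0.35 on chromosome 3. It was -0.35 at the 2685 regions within 2 Mb of a chromosome end and -0.30 at the 2340 regions within 2 Mb of the approximate centromere. In the regions near the centromere the widths were 421 and 391 bp in salt, against 572 and 494 bp in CK(salt). The narrowing there was smaller by less than the difference between the 2 replicate numbers.

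Both edges of the peaks lay further inward in salt, while the median distance between summits was no larger between groups than between the salt libraries. The left edge lay a median of 44.5 bp further in under salt, and the right edge 44.5 bp. Both edges were further in at 75.3% of regions, only 1 of them at 22.9% and neither at 1.83%. The distance from the summit to the left edge was a median of 178 and 162 bp in salt, against 245 and 213 bp in CK(salt). To the right edge it was 181 and 169 bp in salt, against 248 and 217 bp in CK(salt). The median loss was the same on either side.

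Summits of the same region lay a median of 21 to 29 bp apart between a salt and a CK(salt) library, 32 bp apart between the salt libraries and 21 bp between the CK(salt) libraries. They were no further apart between groups than between the salt libraries. Summits lay within 50 bp of each other at 68.3% to 75.8% of regions between groups, 65.0% between the salt libraries and 76.0% between the CK(salt) libraries. The salt summit fell inside the CK(salt) peak at 98.95% to 99.7% of regions in the 4 pairs. Within groups, replicate 1 summits fell inside replicate 2 peaks at 96.6% (salt) and 99.4% (CK(salt)). The regions were chosen by overlap and the CK(salt) peaks are wider, so high values are largely given in advance.

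Within a peak, the summit sat near the centre in all 4 libraries. Over the full lists, 59.3% and 60.1% of summits lay in the central of 3 equal parts of the peak in salt, against 61.4% and 60.0% in CK(salt), and the groups overlapped (exact permutation p = 0.67). The direction depended on which peaks were kept. At a −log10 q of at least 5 the share was 63.2% and 63.9% in salt, against 62.8% and 62.6% in CK(salt). At equal list length it was 59.3% and 62.9% in salt, against 66.8% and 64.6% in CK(salt). The summit lay in the first of 2 equal parts of 50.7% and 52.0% of salt peaks, against 50.6% and 51.4% of CK(salt) peaks. Summits in the 2 outermost of 10 equal parts of the peak were few, at 2.02% and 1.61% in salt, against 1.1004% and 1.43% in CK(salt).

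Within the width classes of 250 to under 500 bp and 500 to under 1000 bp, the centring differed between the groups. Widths can still differ within a class, and peak score was not held alike. Among peaks of 250 to under 500 bp, the summit was in the central part in 65.1% and 62.0% of salt peaks, against 73.4% and 69.6% of CK(salt) peaks. Among peaks of 500 to under 1000 bp it was so in 36.6% and 33.3% of salt peaks, against 42.5% and 40.3% of CK(salt) peaks. The groups did not overlap in either class. At 1000 to under 2000 bp they did, with 30.9% and 40.2% in salt, against 33.9% and 35.1% in CK(salt). Under 250 bp they also overlapped, with 72.7% and 74.7% in salt, against 78.5% and 73.8% in CK(salt). Over the 21021 shared regions, 61.9% and 60.5% of salt summits lay in the central part, against 65.6% and 64.1% of CK(salt) summits. In each list the share was highest in the class under 250 bp, which is larger in the salt lists.

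Some shared regions were called as several peaks under salt. Among the 22988 regions held by all 4 libraries, 231 (1.005%) had 1 peak in both CK(salt) libraries and 2 or more in both salt libraries, against 14 (0.0609%) with the reverse. Regions with 2 or more peaks numbered 842 and 1292 in the salt libraries (3.66% and 5.62%), against 210 and 577 in the CK(salt) libraries (0.914% and 2.51%). The shallower library of each group had the higher number, and the groups did not overlap. The shorter minimum gap in the salt lists, given above, also allows more splits, and its part in the result was not tested.

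The 10 regions named for the largest narrowing in the limma fit were 188 to 381 bp wide in salt and 697 to 1454 bp wide in CK(salt). All 10 were taken from regions where both salt libraries were narrower, and none passed the test (limma adjusted p of 0.112 to 0.127). Chromosome 8 holds the first, from 28148018 to 28149423, with 249 and 197 bp in salt, against 1370 and 900 bp in CK(salt), a log2 difference of -2.33 ± 0.287 (SE). The 4 summits of this region lay within 32 bp of each other, and all 13 input libraries had a peak there. The fourth, on chromosome 9 from 15947802 to 15949435, had 291 and 254 bp in salt, against 1177 and 1268 bp in CK(salt), with summits within 94 bp. The sixth, on chromosome 11 from 18143725 to 18144813, had 267 and 233 bp in salt, against 1071 and 1058 bp in CK(salt), with summits within 36 bp. At these 3 regions the 4 summits lay close together. The CK(salt) replicates were close in width on chromosomes 9 and 11 and far apart on chromosome 8. At others the summit itself differed. The second region, on chromosome 1 from 1833046 to 1834499, had 233 and 260 bp in salt, against 1454 and 957 bp in CK(salt), and its 4 summits were spread over 756 bp.

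The remaining 6 narrowed regions lay on chromosomes 2, 4, 5, 6 and 9. On chromosome 2 from 28271766 to 28273125 the widths were 310 and 189 bp in salt, against 1360 and 902 bp in CK(salt). On chromosome 4 from 7677153 to 7678385 they were 223 and 333 bp in salt, against 1199 and 1219 bp in CK(salt). On chromosome 5 from 26987129 to 26988194 they were 215 and 202 bp in salt, against 1049 and 697 bp in CK(salt). The 4 summits of these regions on chromosomes 2, 4 and 5 were spread over 474, 78 and 528 bp. At the others the spread was 429 and 109 bp on chromosome 9 and 457 bp on chromosome 6. Where the spread exceeds the salt widths, the 4 summits cannot all lie within 1 salt peak. In all 10 regions a peak was also present in 8 to 13 of the 13 input libraries. A peak of the RNaseH library overlapped 0 of the 10, near the share over all regions, 83 of 21021 (0.395%).

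Regions wider under salt were few and changed less. The 10 named ones were 356 to 991 bp in salt and 229 to 644 bp in CK(salt), with log2 differences of 0.72 to 1.12 and a limma adjusted p of 0.125 to 0.369. Chromosome 12 holds the first, from 20528655 to 20529709, with 854 and 934 bp in salt, against 495 and 343 bp in CK(salt), a log2 difference of 1.12 ± 0.233 (SE). It was the only one of the 21021 regions at 2 times the CK(salt) width or more. It lies at 3.19 kb from the nearest peak of the RNaseH library and at the end of the longest run of close peaks in these lists, which is described with the spacing. The fourth, on chromosome 10 from 14534731 to 14535755, had 871 and 991 bp in salt, against 544 and 495 bp in CK(salt), and overlapped an RNaseH peak. The sixth, on chromosome 3 from 6753947 to 6755014, had 719 and 904 bp in salt, against 537 and 407 bp in CK(salt), at 6888 kb from the nearest RNaseH peak.

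**Figure D3:**
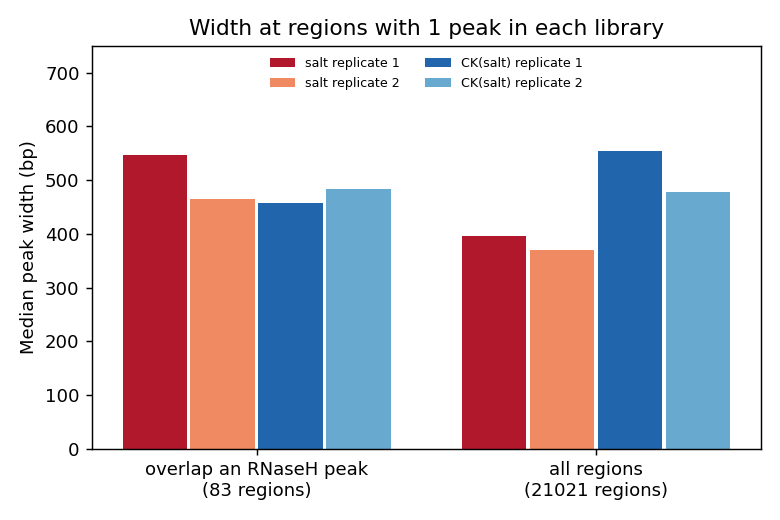
Median peak width in bp (vertical axis) of each library at the 83 regions with 1 peak in each library that overlap a peak of the RNaseH library and at all 21021 such regions. The salt bars lie below the CK(salt) bars over all regions, whereas the 2 groups overlap at the 83 regions.

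The list labelled RNaseH comes from 1 library and holds 123 peaks, with a background coverage of 65.45 fragments per position. Whether its peaks are R-loops was not tested. Regions that also carry a peak in this library had overlapping widths in the 2 groups. This group was formed after the widened regions had been seen and is given as a description, without a test. The 83 such regions lay on 10 chromosomes, 31 of them on chromosome 12, and formed 29 places more than 100 kb apart, so they are not independent of each other. Their median width was 547 and 465 bp in salt, against 458 and 484 bp in CK(salt), and the groups overlapped. The median log2 difference was 0.08, and it was 0.10 and 0.03 within replicate numbers. Both salt libraries were wider at 28 of the 83 (33.7%) and narrower at 1 (1.20%), where the shares over all regions were 1% and 60.7%. Read the other way, 28 of the 211 widened regions (13.3%) overlapped an RNaseH peak, against 1 of the 12767 narrowed ones (0.00783%). The share over all 21021 regions was 0.395%.

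Spacing followed the number of peaks. The median distance between neighbouring summits was 7977 and 7355 bp in salt, against 5294 and 6679 bp in CK(salt), a log2 difference of 0.37 (exact permutation p = 0.33). Within replicate numbers the salt distance was 151% and 110% of the CK(salt) distance, in parallel with 63.5% and 88.5% of its peaks. With 32861 peaks in each list the median distance was 7977 and 7998 bp in salt, against 7992 and 8057 bp in CK(salt), a log2 difference of -0.00666. At equal numbers the groups overlapped. Evenness was also alike, with a coefficient of variation of the distances of 1.19 and 1.15 in salt, against 1.21 and 1.16 in CK(salt).

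**Figure D4:**
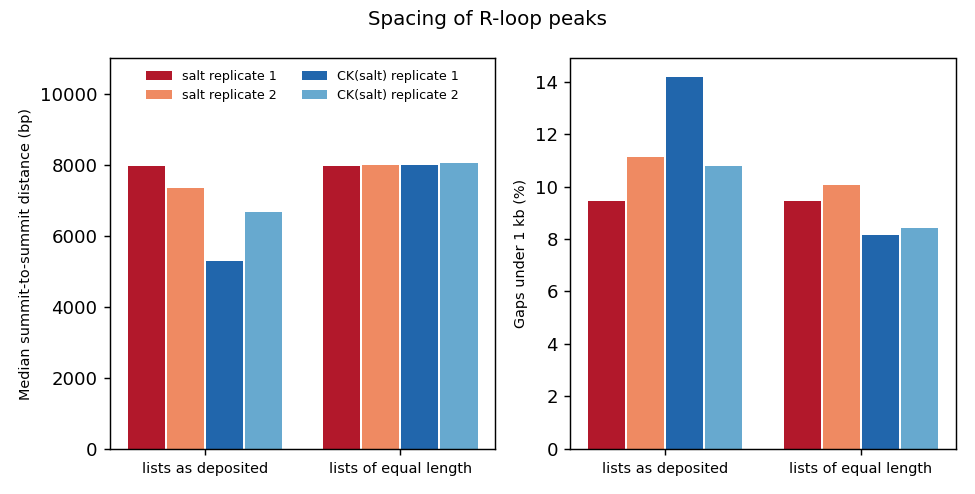
Median distance between neighbouring summits in bp (left vertical axis) and percent of gaps under 1 kb (right vertical axis) in each library, for the lists as deposited and for lists of 32861 peaks each. At equal length the median distances run from 7977 to 8057 bp, while gaps under 1 kb are more common in both salt lists.

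Close neighbours behaved differently from the median. Gaps under 1 kb made up 9.46% and 11.1% in the full salt lists, against 14.2% and 10.8% in CK(salt), with overlapping groups. At equal length they made up 9.46% and 10.1% in salt, against 8.16% and 8.41% in CK(salt), so that both salt lists were higher. Runs of 3 or more peaks under 1 kb apart numbered 192 and 289 in salt, against 736 and 340 in CK(salt), in full lists of unequal length.

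The longest run was at the same place in all 4 lists. It held 7 and 7 peaks in salt, against 8 and 8 in CK(salt), on chromosome 12 from 20521584 to 20529709 in salt replicate 1 and from 20521569 to 20529216 in CK(salt) replicate 1. At the other extreme, distances over 100 kb between neighbouring summits numbered 62 and 63 in salt, against 52 and 57 in CK(salt). At equal list length they numbered 62 and 68 in salt, against 69 and 67 in CK(salt), and the groups overlapped. Several of the longest empty stretches recurred. One on chromosome 8 began at summits from 6838761 to 6838801 in all 4 lists and was 465 and 419 kb long in salt, against 252 and 465 kb in CK(salt). The longest of all, 573 kb on chromosome 6 from 18226171 to 18799162, was among the 3 longest in salt replicate 1 alone.

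Placement along the chromosomes was close to unchanged. Peaks were counted by summit in 378 tiles of 1 Mb with a mean of at least 20 peaks. A tile held a median of 89 and 97.5 peaks in salt, against 143 and 111 in CK(salt), and both salt libraries had fewer peaks than both CK(salt) libraries in 351 tiles and more in 0. As a share of its list, which takes the length of the list out, a tile's content differed by a median of 0.00 on the log2 scale, with the middle 50% of tiles between -0.06 and 0.07, and no tile differed by 0.5 or more. In the limma fit 0 tiles were called higher and 0 lower at an adjusted p under 0.05 (0% and 0% of those tested), the lowest being 0.295. At an unadjusted limma p under 0.05, 21 tiles (5.56%) were higher and 15 (3.97%) lower. Both salt shares lay above both CK(salt) shares in 86 tiles (22.8% of those tested) and below in 76 (20.1%). The number of peaks per tile correlated between libraries over the 378 tiles with Pearson's r of 0.906 to 0.940 between salt and CK(salt), 0.919 between the salt libraries and 0.955 between the CK(salt) libraries. Neighbouring tiles may not be independent of each other, so these r values are a description.

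The tiles named for the largest shifts changed by small numbers of peaks. The tile of chromosome 12 from 13 to 14 Mb had 99 and 104 peaks in salt (0.301% and 0.290% of the list), against 131 and 102 in CK(salt) (0.253% and 0.251%), a log2 share difference of 0.23 ± 0.0608 (SE, limma adjusted p = 0.295). It holds 9 peaks of the RNaseH library. The tile of chromosome 9 from 4 to 5 Mb had 88 and 89 peaks in salt, against 116 and 90 in CK(salt), with a difference of 0.21 and 14 RNaseH peaks. Higher shares were also found in the last tiles of chromosomes 10 (0.30) and 1 (0.24), which held 24 to 47 peaks a library. Another lay from 19 to 20 Mb on chromosome 3 (0.21). These tiles each held 0 RNaseH peaks, and a link between RNaseH peaks and tile shares was not tested. The largest decrease was on chromosome 4 from 27 to 28 Mb, with 77 and 89 peaks in salt (0.234% and 0.248%), against 155 and 114 in CK(salt) (0.300% and 0.281%), a log2 share difference of -0.26 ± 0.0662 (SE, limma adjusted p = 0.295). Of the 5 named decreases, 3 lay on the second arm of chromosome 4, from 20 to 21, 27 to 28 and 29 to 30 Mb, and the others on chromosome 12 from 24 to 25 Mb and on chromosome 3 from 33 to 34 Mb.

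**Figure D5:**
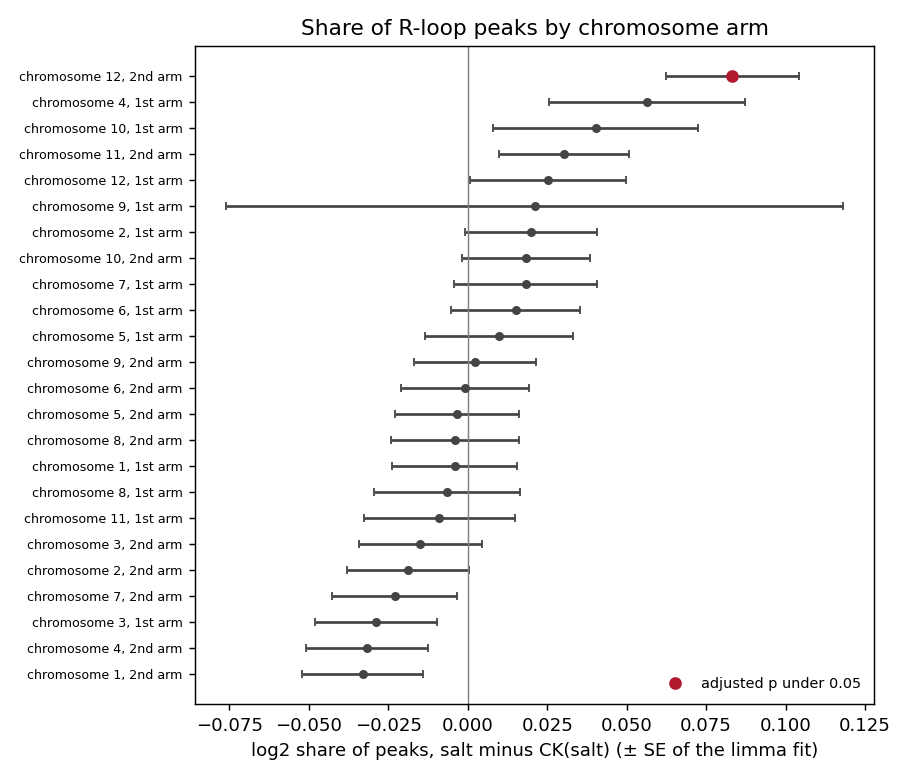
Difference in the log2 share of peaks, salt minus CK(salt) (horizontal axis, points with the SE of the limma fit), for the 24 chromosome arms (vertical axis), sorted by the difference. The second arm of chromosome 12, at 0.08, is the only arm called, and the other 23 lie between -0.03 and 0.06.

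By chromosome arm, 1 of 24 arms was called. Arms were separated at approximate centromere positions of the IRGSP-1.0 rice assembly in whole Mb, from general knowledge, because the build of the lists is not given, and are numbered first and second along the coordinates. The second arm of chromosome 12 held 1306 and 1432 peaks in salt (3.97% and 3.99%), against 1925 and 1540 in CK(salt) (3.72% and 3.79%). The log2 share difference was 0.08 ± 0.0208 (SE), with a limma adjusted p of 0.00521, and the called arm is 4.17% of the arms tested. The fit took its variance almost wholly from the 24 arms together (48 degrees of freedom). Its SE and p therefore do not measure how this arm alone varies between replicates. The first arms of chromosomes 4 and 10, known from cytology as rich in heterochromatin, had the next highest differences of 0.06 and 0.04 (limma adjusted p = 0.581 and 0.732). The first arm of chromosome 4 held 2.03% and 2.12% of peaks in salt, against 1.98% and 2.01% in CK(salt). The lowest differences were -0.03 for the second arms of chromosomes 1 and 4 and for the first arm of chromosome 3 (limma adjusted p = 0.581 each). Shares did not overlap between groups in 6 arms higher in salt (25% of those tested) and 4 lower (16.7%). The call on chromosome 12 was lost without salt replicate 1, salt replicate 2 or CK(salt) replicate 1 (limma adjusted p = 0.325, 0.639 and 0.135), with differences of 0.07 to 0.09. In the fits without a salt replicate the degrees of freedom also fell, from 48 to 2.58. Without peaks that overlap the RNaseH list the difference was 0.08 (limma adjusted p = 0.0149).

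Peak-poor parts of the genome held a slightly larger share of the salt peaks. Tiles were put into 5 equal groups by their number of peaks in the 8 µg libraries. The group of fewest peaks held 14.2% and 14.3% of salt peaks, against 13.6% and 13.9% of CK(salt) peaks. The group of most peaks held 23.4% and 23.7% of salt peaks, against 24.4% and 24.1% of CK(salt) peaks. The stretches within 2 Mb of the approximate centromeres held 10.8% and 10.7% of salt peaks, against 10.1% and 10.2% of CK(salt) peaks (exact permutation p = 0.33). Those within 2 Mb of the chromosome ends held 12.96% and 12.8% in salt, against 13.1% and 12.99% in CK(salt). None of the 4 contrasts had overlapping groups. At equal list length the groups of fewest peaks overlapped, with 14.2% and 14.6% in salt, against 14.1% and 14.3% in CK(salt), and the groups of most peaks did not, with 23.4% and 23.5% in salt, against 24.1% and 23.9% in CK(salt).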

How the data were processed

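Peaks were called with MACS2 2.1.4 after alignment with Bowtie2, per the submitters' processing notes, and the authors deposited 1 list per library without a header. Thresholds, control library and genome build are not given in the sources used here. The authors' score column holds the −log10 q-value times 10, the deposited −log10 p-value and q-value belong to the summit, and the deposited fold is a ratio of summit to local background. Lists hold no read counts. Positions and summits were used as deposited. Scores served only to rank or filter peaks within a list.

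Groups follow the titles. Library values were compared by exact two-sided permutation over the 4 libraries. Region widths (log2) and peak shares per tile and arm (log2 with 0.5 peaks added) were fitted with limma 3.58.1 in R 4.3.3. The fit had no replicate block, a variance trend and Benjamini-Hochberg adjustment over all features. It was also run on simulated data without shifts of whole libraries, which cannot show how it handles such shifts. The arm limits were 17, 14, 19, 10, 12, 15, 12, 13, 3, 8, 12 and 12 Mb for chromosomes 1 to 12. Named regions had the largest log2 width difference among those where the groups do not overlap, 10 each way, and named tiles likewise, 5 each way. Regions past the threshold came first, but there were none. The measures and classes were chosen with earlier results of these data known.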

Additional observations from a re-analysis of the deposited data

How the results depend on the processing

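The median width and the shares of peaks by width kept their direction under the alternatives run. At the 15029 regions where the peak of each library covered at least 50% of the merged region, the median log2 width difference was -0.26. That filter is set by the widths themselves and leaves out regions where they differ most, so a smaller value is built in. Over the shared regions the median log2 width difference was -0.54 after the smallest width of each list was subtracted (added after the data were seen). It was -0.19 for salt replicate 1 against CK(salt) replicate 2 (also added), and -0.42 to -0.24 with 1 library left out, the lowest being without CK(salt) replicate 2 and the highest without CK(salt) replicate 1. Counts of called regions stayed at 0 in these fits. The share of summits in the central part of the peak turned to 0.885 percentage points higher in salt at a −log10 q of at least 5. At equal list length the same difference was -4.60 points. At equal list length the median spacing (-0.00666, log2), gaps under 1 kb (1.47 points) and the coefficient of variation (0.0285) changed sign. With 1 library left out the coefficient differed by -0.0392 to 0.00816 and changed sign without salt replicate 2 (0.00448) and without CK(salt) replicate 1.

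Called tiles numbered 0 to 6 lower and 0 to 5 higher with 1 library left out. They were 2 lower and 1 higher with 0.5 Mb tiles, 1 lower and 0 higher with no filter, and 1 and 1 with a pseudocount of 5. Called arms numbered 0 to 1 higher with 1 library left out, 0 without the 2 Mb around arm limits, 2 higher at equal length, and 1 lower beside 1 higher at a −log10 q of at least 5. Median degrees of freedom of the fits differed as well, at 11.6 over tiles in the main fit and 378 without either salt replicate. Over arms they were 48 in the main fit and 2.58 without either salt replicate. The causes of the changes in calls were not tested. With the replicate number as a replicate block, 2 tiles were lower and 1 higher, and 1 arm was higher. Same-numbered libraries deviated together with r of 0.0961 over regions, 0.0345 over tiles and -0.24 over arms, and 2 pairs do not show that the numbers pair the libraries. With crossed pairs as the block, 0 arms were called. Depth was not made equal between the lists, since a list without counts cannot be thinned in width, and its part in the widths was not tested.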
